A study of Mus musculus with 96 samples.

Results

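The 12 least similar and the 12 most similar sister pairs were taken from 48 pairs of cultured horizontal basal cells (HBCs), the reserve stem cells of the olfactory epithelium (OE). Similarity was Spearman's correlation of the raw counts of both sisters over the 14463 genes with at least 10 counts in at least 10% of the 96 cells, out of 55487 genes listed. The least similar pairs hold 24 cells, the most similar pairs 24 cells, and the 24 pairs between them the other 48 cells. All cells were wild-type, were grown from the OE of mice aged 6 to 8 weeks, 2 days after methimazole, a drug that strips the OE down to its HBCs, and shared one culture scheme, so that there is no treated group and no control group. Dividing cells were plated on Tropoelastin and moved to Fibronectin, both sisters of a division were picked by mouth pipette, and their poly(A) RNA was sequenced by G&T-seq with the ERCC spike-in, synthetic transcripts added to every lysate in one volume. No label names the mouse or dish a cell came from, so the cells make up 1 sample without replicates, and no test or p-value is given for any difference. Pairs were chosen by the counts of these same genes, so that every difference below in a gene that passed the filter describes the chosen pairs and is not independent evidence about them. Culture on coated dishes also limits these cells as a model of HBCs in the tissue.

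HBCs lie at the base of the OE, express the transcription factor p63 (Trp63) and the keratins Krt5 and Krt14, and are held to the basement membrane by integrins and laminin-332. After injury they lose quiescence, divide and give rise both to HBCs and to cells that go on to differentiate. Sisters of one division start from a shared cytoplasm and a copied genome. They can then come to differ by unequal inheritance at division, by entering the next cell cycle at different times, by taking up different fates, or by the bursts in which genes are transcribed. Single-cell libraries add differences of their own, since a transcript present in few copies can be missed at reverse transcription.

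Trp63, Krt5 and Krt14, markers of the labelled cell type, were counted in every one of the 48 cells of the 2 groups of pairs, but not at like levels. Sister 2 of pair 4 had the lowest Krt5 and Krt14 of 96 cells, at 175 and 17.9 CPM. The summed level of the 3 markers was 229 to 11070 CPM (counts scaled to 1e+06 counts on genes per cell), with a median of 5809, in the least similar pairs, and 1633 to 11639 CPM, with a median of 6768, in the most similar. Markers of Bowman's glands (Sox10, Muc5b and Bpifb1) were at 0 in all of these cells, and the summed markers of globose basal cells reached at most 0.103 CPM in the least and 37.0 CPM in the most similar pairs. The highest sums in the least and the most similar pairs were 21.2 and 59.5 CPM for olfactory neurons, 11.1 and 9.22 for sustentacular cells, 7.18 and 9.96 for microvillous cells, 20.5 and 0.113 for ensheathing glia, 5.80 and 32.6 for endothelium, 0.148 and 5.41 for fibroblasts and 4.07 and 0 for ciliated cells. Leukocyte markers reached 287 and 167 CPM through Cd68, with Ptprc at most 19.6 and Lyz2 at most 1.30 CPM. The part of these transcripts in the results was not tested. Totals on genes were alike, with 30117272 to 44849003 counts per cell in the least similar pairs and 29454150 to 43651021 in the most similar.

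Sister correlation was 0.639 to 0.698 in the least similar pairs, with a median of 0.684, and 0.756 to 0.774 in the most similar, with a median of 0.762. In rising order the least similar were pairs 4, 29, 3, 14, 8, 41, 15, 2, 26, 33, 20 and 22, and in falling order the most similar were pairs 10, 37, 30, 18, 47, 48, 9, 43, 27, 19, 24 and 34. The lower boundary does not mark a break in the data. Pair 22, the last inside, had 0.6977 and pair 39, the first outside, 0.6982. At the upper boundary, pair 34 inside had 0.756 and pair 12 outside 0.749.

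**Figure D1:**
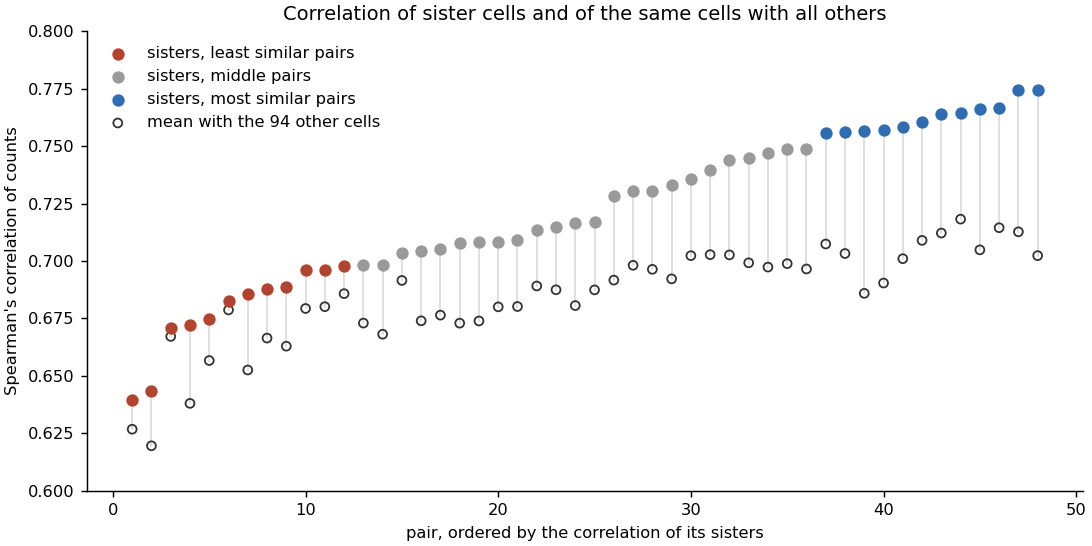
Spearman's correlation of counts over 14463 genes (y axis) in 48 pairs ordered by that value (x axis). Filled points are sisters, coloured by group, and open points are the mean correlation of the same cells with the 94 cells that are not of the pair. Every filled point lies above its open point, and both tend to rise from left to right.

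Cells of the least similar pairs were also less like all other cells. Their mean correlation with the 94 cells outside the pair had a median of 0.665 over the 12 pairs, against 0.706 in the most similar pairs. Sisters still exceeded this level in 48 of 48 pairs, but by little in the least similar, where the excess was 0.0036 to 0.0342 with a median of 0.0173. In the most similar pairs it was 0.0462 to 0.0721, with a median of 0.0552, and the ranges did not overlap. The excess, like the ranks given next, contains the correlation by which the pairs were chosen. This separation is therefore not independent of that choice. Pairs 33, 20 and 22 fell below the mean correlation with the other 6 cells of their set. A set is one of the 12 groups of 8 cells, or 4 pairs, that the names of the deposited data give, and whether a set was handled together is not stated.

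Ranking the 95 possible partners of each cell by correlation showed that the low pairs were not all alike. In pairs 14 and 15 the sisters stood at ranks 2 and 1, and 4 and 2, so that each cell was among the nearest to its sister although the correlation was low. In pair 3 they stood at ranks 48 and 45 and in pair 41 at ranks 36 and 55, near the middle of the list. Pair 4 was the most lopsided: sister 1 was the nearest of all cells to sister 2, while sister 2 came 76th for sister 1. Pairs 29, 26 and 2 were lopsided too, at ranks 2 and 25, 2 and 26, and 6 and 43. Pairs 8, 33, 20 and 22 lay between, at ranks 18 to 36. Over the 24 cells of the least similar pairs the median rank of the sister was 25.5, and 7 cells had her among the first 5. In the most similar pairs the median was 2, and 23 of 24 cells had the sister among the first 5.

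The share of counts taken by ERCC transcripts moved with similarity. Per cell it was 2.00% to 5.75%, with a median of 4.07%, in the least similar pairs and 1.06% to 3.45%, with a median of 2.47%, in the most similar. The number of genes counted was 11403 to 14065, with a median of 12504.5, against 12598 to 14274, with a median of 13360. Over the 48 pairs, which share libraries, depth and sets, the correlation of sister similarity with the ERCC share was r = -0.691 and rho = -0.649, and -0.624 without the 2 pairs farthest from the median share. With the number of genes counted it was r = 0.727 and rho = 0.758, and 0.755 without the 2 farthest pairs. A higher ERCC share at equal spike-in means less poly(A) RNA recovered from a cell, and less RNA per cell and lower recovery cannot be told apart. Within the 12 sets, the pair of lowest correlation had a higher ERCC share than the pair of highest correlation in 9 sets, fewer genes in 11 and a lower mean correlation with non-sisters in 12. Set 1 alone held 3 of the 12 least similar pairs, and 6 sets held pairs of both kinds.

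**Figure D2:**
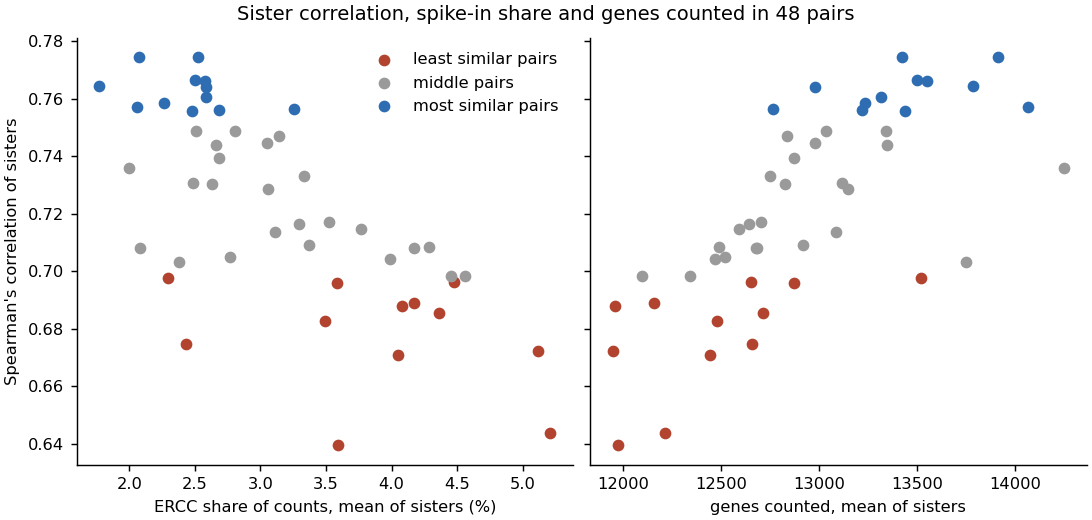
Sister correlation (y axis) against the mean ERCC share of counts of the sisters in percent (left) and the mean number of genes counted (right) in 48 pairs, coloured by group. Least similar pairs lie mainly at high ERCC shares and low gene numbers, and pairs 8 and 22 are exceptions at 2.43% and 2.29%.

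The spike-ins, which the choice of pairs did not use, differed little. The correlation of ERCC counts between sisters was 0.789 to 0.913, with a median of 0.846, in the least similar pairs and 0.823 to 0.914, with a median of 0.856, in the most similar, and the ranges overlap over most of their length. Over 48 pairs its correlation with sister similarity was r = 0.0881 and rho = 0.0725. Genes outside the filter, counted in few cells, were not used either. Sisters shared 1.02% to 3.87% of those with at least 10 counts in either sister, with a median of 2.58%, in the least similar pairs and 1.89% to 6.58%, with a median of 2.97%, in the most similar, against medians of 1.60% and 1.86% with non-sister cells. The share was above that of non-sisters in 10 of 12 least similar and in 12 of 12 most similar pairs.

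The larger differences of the least similar pairs lay in well measured genes. Differences between sisters were taken as the absolute difference of log2(CPM + 1), on which 1 is about 2-fold and which understates changes of genes near 0. Among the 9266 genes with a mean of at least 10 CPM over the 96 cells, the median difference per gene was 1.29 in the least and 0.97 in the most similar pairs, and it was larger in the least similar for 6536 genes (70.5%). In each pair, 51.9% to 58% of these genes differed 2-fold or more in the least similar pairs and 44.2% to 47.9% in the most similar. The contrast was widest for genes of 30 to 100 CPM, where the median was 1.32 against 0.93. For genes of 3 to 10 CPM it had the other sign, 0.47 against 0.75. Genes at 0 in one sister with at least 10 counts in the other numbered 1762 to 2094, with a median of 1956.5, in the least similar pairs and 1582 to 1787, with a median of 1696, in the most similar. Over all 14463 genes the contrast was small, and under scaling to the ERCC transcripts it was close to 0: the pooled median difference was then larger by 0.0065 in the least similar pairs, against 0.077 with CPM.

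A gene was called when it differed at least 2-fold in 9 or more of the 12 least similar pairs and in 3 or fewer of the 12 most similar. This held for 95 of 14463 genes (0.657%), and with the groups exchanged for 30 (0.207%). Of the genes of mean CPM of at least 10, 93 of 9266 (1.0%) were called, and 17 (0.183%) with the groups exchanged. The mean level of a called gene over the 96 cells had a median of 62.7 CPM. The median level was lower in the cells of the least similar pairs for 88 of 95 called genes, beside 66.7% of all well measured genes, and cells under 1 CPM were more frequent there for 75 of 95, beside 63.7%. Which genes were called depended on the fold, the scaling and how pairs were ranked. At 1.5-fold 63 genes were called, of which 8 were among the 95, and at 4-fold 77, of which 6 were. A pseudocount of 10 CPM kept 44 of the 95, ERCC size factors 48 and TPM 56, while TMM factors kept 82. When the lowest and highest pair of each set were compared, 68 genes were called, of which 22 were among the 95, and when pairs were ranked by the excess over non-sisters, 84 were called, of which 27 were.

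Mdn1 (chr4:32657119-32775217, GRCm38, plus strand), which encodes the AAA ATPase midasin of 60S ribosome assembly, had the widest gap of the called genes. In the least similar pairs it had 55.8 CPM against 0 in pair 4, 0.242 against 70.2 in pair 29, 133 against 2.39 in pair 3 and 0.443 against 88.5 in pair 2. In the 3 pairs of highest correlation it had 70.4 and 96.6 CPM in pair 10, 50.9 and 92.2 in pair 37 and 28.0 and 42.9 in pair 30. The gene was thus near 0 in one sister in several low pairs and present in both sisters of these high pairs, and the median difference was 4.91 against 0.72.

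Polr1a (chr6:71909053-71984935, plus strand), which encodes the largest subunit of RNA polymerase I, differed 2-fold in 11 of 12 least similar pairs, with 0.223 against 30.9 CPM in pair 4, 62.3 against 0.695 in pair 29 and 3.05 against 159 in pair 33. Over the cells it was 0.196 to 161 CPM, with a median of 32.9, in the least similar pairs and 10.6 to 200 CPM, with a median of 89.2, in the most similar. The median difference was 4.40 against 0.42. Gpatch8, a G-patch protein gene, had the tightest agreement in the most similar pairs, where no pair differed 2-fold and the level was 22.1 to 115 CPM, against 10 of 12 least similar pairs and 0.325 to 190 CPM.

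The other genes named by the size of their gap were Nudt8, Hccs (the synthase that attaches heme to cytochrome c), Mcrs1, Armc5, P3h2, Plcb3 (a phospholipase C), Taf1 (the largest subunit of TFIID), Stk3 (a Hippo pathway kinase), Fibp, Lpcat4 and Tstd2. Their median differences were 2.88 to 3.95 in the least similar pairs and 0.21 to 0.84 in the most similar. Taf1 was under 1 CPM in 6 of 24 cells of the least similar pairs and in 0 of 24 of the most similar. In 6 of the 10 least similar pairs in which Taf1 differed 2-fold, and in 5 of the 10 for Mdn1, the lower sister was under 1 CPM, so that the difference was often between presence and near absence of the transcript.

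The opposite pattern belonged to genes of lower level. Xylt2, Faap100 (a Fanconi anaemia core protein gene), Elovl7, Pard6a (a polarity protein gene) and C2cd2 differed by a median of 4.25 to 4.86 in the most similar pairs and of 0 to 0.37 in the least similar. In the least similar pairs 16 to 20 of 24 cells were under 1 CPM for these genes, and in the most similar 9 to 13 of 24. Faap100 showed the form: both sisters were below 1 CPM in pairs 29, 3, 14, 15, 33 and 20, whereas in pair 18 one sister had 47.9 CPM and the other 0. The genes with the smallest median difference in the least similar pairs, Sprr2f, Ccl20, Gemin4, P2rx7 and Adnp, had it because 19 to 23 of 24 cells were under 1 CPM.

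Lists of genes with a shared role were described by the median signed difference over their members in each pair, sister 1 minus sister 2, called the shift. A shift of 1 or more means that the list as a whole was about 2-fold higher in one sister. Large shifts lay in a few pairs, and different lists shifted in different pairs.

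**Figure D3:**
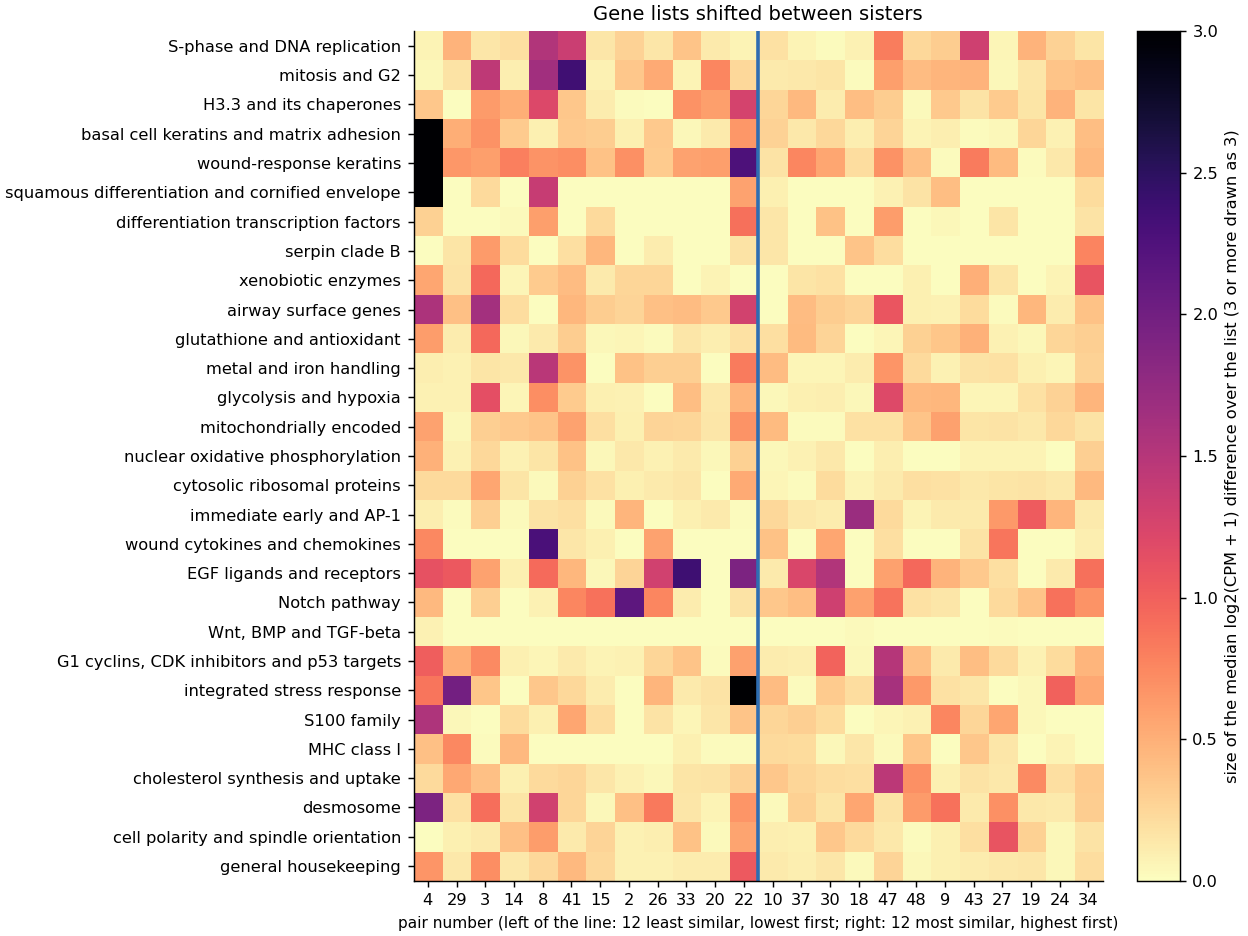
Size of the shift of 29 gene lists (rows) in the 12 least similar pairs (left of the line, lowest correlation first) and the 12 most similar (right, highest first). Darker cells are larger shifts on the log2 scale, and those of 3 or more share the darkest colour. That colour is reached in pair 4 for basal keratins and adhesion, wound keratins and squamous genes, and in pair 22 for the integrated stress response, while mitosis in pairs 3, 8 and 41 is lighter, at 1.44 to 2.37 in size.

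Genes of mitosis and G2 shifted as a block in 3 least similar pairs. All 43 members were well measured, 37 of 43 had the larger median difference in the least similar pairs (beside 70.5% of all well measured genes), and the median over members was 1.29 against 0.72. That share was not particular to mitosis. It was 9 of 10 for general housekeeping genes, 14 of 16 for basal cell and adhesion genes and 8 of 9 for MHC class I. Other lists had a lower share, such as DNA replication with 18 of 34. The shift reached 1 in pairs 3, 8 and 41, with -1.44, -1.65 and -2.37, and in 0 of 12 most similar pairs, whose highest was 0.60. Its median size was close in both groups, at 0.29 in the least and 0.26 in the most similar pairs. In pair 41, 30 of 43 members were at least 2-fold higher in sister 2, where 30.3% of all well measured genes were. In pair 8 it was 24 of 43, beside 26.2%, and in pair 3 30 of 43, beside 27.9%.

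In pair 41, sister 1 was low in many transcripts of proliferation, though not in all, since Ube2c had 101 CPM in sister 1 and 54.4 in sister 2. Mki67, the Ki-67 gene expressed in cycling cells, had 3.37 CPM (121 counts, 95% Poisson interval 2.79 to 4.02 CPM) in sister 1 and 415 (408 to 421) in sister 2. Cdca8, a chromosomal passenger protein gene, had 0.612 and 154 CPM. Cenpf, a kinetochore gene, had 1.22 and 197 CPM, and Kif11, the kinesin that drives spindle poles apart, 1.39 and 166. Genes of DNA replication went the same way: 21 of 34 were at least 2-fold higher in sister 2 and none in sister 1, where 25.2% of all well measured genes were, with a shift of -1.35. Clspn, a replication checkpoint gene, had 0.250 and 138 CPM, Uhrf1, which recognises hemimethylated DNA, 22.0 and 331 CPM, and Mcm2, of the replicative helicase, 117 and 432.

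In pair 8 both cell cycle lists were again higher in sister 2, with shifts of -1.65 for mitosis and -1.53 for DNA replication, and Mki67 had 2.32 CPM (83 counts, 1.85 to 2.88) and 257 (252 to 263). Top2a, a topoisomerase gene of G2 and mitosis, had 1.68 and 33.7 CPM, both far below its mean of 452 CPM over 96 cells. Ccna2 (cyclin A2) went the other way, with 18.1 and 1.14 CPM. In pair 8, 5 of 6 well measured wound cytokine genes were at least 2-fold higher in sister 2, beside 26.2% of all, and none in sister 1. Lif and Il24 are among the 5. Their means of 10.6 and 22.7 CPM over the 96 cells passed the limit of 10 CPM through pair 8 itself, so the count is not independent of the pair. Of the 10 list members in the filter, Cxcl1 had 10.7 and 1107 CPM, Csf1 0.196 and 281, Lif 0.112 and 141 and Il24 231 and 1160, while Csf3 had 134 and 65.3 and Ccl20 and Cxcl5 were at 0 in both. Sister 1 had more of the desmosome genes, 8 of 10 at least 2-fold higher beside 28.3% of all, with Dsp (desmoplakin) at 2157 and 887 CPM and Jup (plakoglobin) at 1880 and 685. Pkp2 was the exception at 0.112 and 106 CPM.

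Pair 3 differed in another way, since both sisters had Mki67. It was at 461 CPM in sister 1 and 554 in sister 2, and the DNA replication list shifted by -0.14. The difference lay in genes of G2 and mitosis: Aurka (Aurora A) had 0.917 CPM (0.635 to 1.28) and 467 (460 to 474), Plk1 (Polo-like kinase 1) 0.944 and 259, Hmmr 0.297 and 124, Cdc20, the activator of the anaphase-promoting complex, 155 and 1754, and Ccnb2 (cyclin B2) 29.1 and 319. Sister 1 instead had Cdkn1a (p21, a p53 target that blocks cyclin-dependent kinases) at 1154 CPM (1143 to 1165) against 1.26 (0.933 to 1.67), Ccng1 at 539 against 83.1 and Trp53inp1 at 71.4 against 9.01. Of 27 well measured genes of glycolysis and hypoxia, 17 were at least 2-fold higher in sister 1, beside 25.3% of all, and 1 in sister 2. Ndrg1 had 320 against 0.978 CPM, Adm (adrenomedullin) 188 against 28.8 and Tpi1 4197 against 976. Cdk5rap3, among the 3 genes that differed most in pair 3, had 337 CPM in sister 1 and 0 counts in sister 2, which allows up to 0.0772 CPM.

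**Figure D4:**
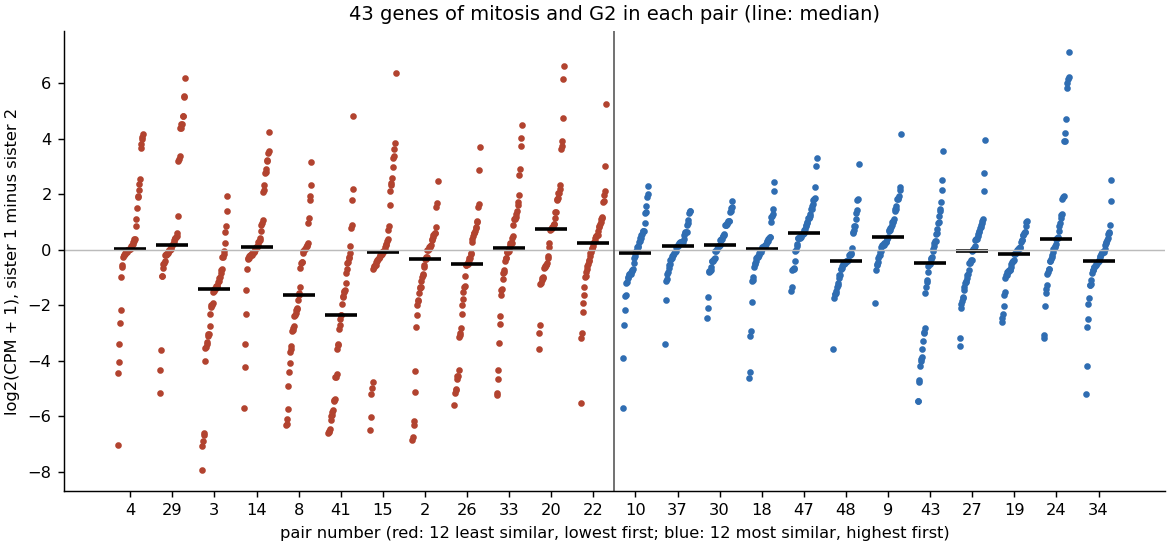
Difference of log2(CPM + 1), sister 1 minus sister 2 (y axis), for each of 43 genes of mitosis and G2 (points) in 24 pairs (x axis), with the median as a black line. Medians lie at -1.44, -1.65 and -2.37 in pairs 3, 8 and 41, and between -0.54 and 0.76 in the other 21 pairs.

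Many mitotic genes share the CHR element TTTGAA and CCAAT boxes near the start of transcription. The promoters of Cdc20 and Plk1, both higher in sister 2 of pair 3, are printed to show these letters. Each runs 5′ to 3′ on the strand of the gene from 250 bases before the start to 50 after it, in RefSeq coordinates of GRCm38.p6, with TTTGAA and CCAAT of either strand in capitals. Cdc20 lies at chr4:118437294-118437593 (minus strand) and Plk1 at chr7:122159185-122159484 (plus strand).
Cdc20: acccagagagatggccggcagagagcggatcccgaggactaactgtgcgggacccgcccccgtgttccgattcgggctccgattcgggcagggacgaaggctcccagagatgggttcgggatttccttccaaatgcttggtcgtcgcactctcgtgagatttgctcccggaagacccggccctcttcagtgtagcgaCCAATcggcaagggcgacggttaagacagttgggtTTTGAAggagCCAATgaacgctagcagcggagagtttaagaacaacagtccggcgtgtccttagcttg
Plk1: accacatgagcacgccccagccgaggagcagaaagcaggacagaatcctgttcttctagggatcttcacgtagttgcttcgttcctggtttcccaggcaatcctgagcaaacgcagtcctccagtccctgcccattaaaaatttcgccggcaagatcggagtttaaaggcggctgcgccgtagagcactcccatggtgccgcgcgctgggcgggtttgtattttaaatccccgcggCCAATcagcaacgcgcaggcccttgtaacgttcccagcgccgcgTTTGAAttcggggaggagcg

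Promoters were found for 39 of the 43 genes. On either strand, TTTGAA was in 28 of 39 (71.8%), beside 17.9% of all 32851 promoters of 300 bases, and CCAAT in 32 of 39 (82.1%), beside 37.4%. These are matches of letters and were not tested as binding sites.

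Pair 4, the least similar of all, differed in keratins, adhesion and differentiation genes rather than in the cell cycle. Mki67 was low in both sisters, at 2.83 and 3.11 CPM, where the 94 other cells had a median of 465. Sister 2 had the lowest level of 96 cells for Krt5 (175 CPM), Krt14 (17.9 CPM, 16.6 to 19.3) and Krt6a (23.5 CPM), where sister 1 had 2469, 3057 and 17548. Trp63 was at 168 and 36.4 CPM, ranks 55 and 92 of 96, so that the transcript was present in both.

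Of the 16 basal cell and adhesion genes, 14 were at least 2-fold higher in sister 1 of pair 4 and none in sister 2, beside 31.8% and 26.2% of all well measured genes, and the shift was 4.36. The integrins of the hemidesmosome had 1003 and 3.73 CPM for Itga6 and 848 and 4.38 for Itgb4, and Col17a1 had 235 and 1.66. In the 94 other cells Itga6 was at least 170 CPM and Itgb4 at least 260. Most keratins of wound repair followed, with Krt17 at 9294 and 19.9 CPM and Krt16 at 2089 and 0.104. Krt23, of the same list, went the other way, with 134 CPM in sister 1 and 1300 in sister 2. Krt6a, Krt6b and Krt16 were the highest of 96 cells in sister 1 and the lowest in sister 2. These keratins are close paralogs that can share reads, so single values are less certain than the pattern.

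Genes of squamous differentiation differed in both directions in pair 4. Sister 1 had Cnfn (cornifelin, of the cornified envelope) at 9433 CPM (9405 to 9462) against 1.11 (43 counts), Sbsn at 771 against 0.207, Tgm1, the transglutaminase that crosslinks the envelope, at 392 against 0.311, and Sprr3 at 1329 against 5.62. Sister 2 had Sprr2f at 3503 CPM (3484 to 3521) against 0.803 and Sprr2b at 322 against 0.223, members of the same envelope family. Sprr2f was at most 1.80 CPM in the 94 other cells, so that it was well measured only through this cell. Of 20 well measured squamous genes, 12 were at least 2-fold higher in sister 1 and 6 in sister 2, beside 31.8% and 26.2% of all well measured genes, and the Sprr2 genes are close copies among which reads can be split.

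Single xenobiotic and fluid-handling genes had their highest level of all cells in sister 2 of pair 4, while the xenobiotic list as a whole shifted by less than 1. Of its 17 well measured members 8 were at least 2-fold higher in sister 2 and 6 in sister 1, beside 26.2% and 31.8% of all, and the shift was -0.56. Gsta1, a glutathione transferase gene, had 1885 CPM in sister 1 and 13.0 in sister 2. Cyp2a5, a cytochrome P450 of nasal mucosa and liver, had 6730 CPM (6704 to 6756) against 1.94 in sister 1 and at most 16.2 in the 94 other cells. The median of those 94 cells was 0, so that Cyp2a5 was well measured only through sister 2. The counts of members higher in sister 2 are therefore not independent of this cell. Ugt2a1, an olfactory UDP-glucuronosyltransferase, had 4509 CPM (4488 to 4530) against 0.914 and at most 156 elsewhere. Papss2, Aqp5, Alox15 and Vmo1 were picked after their values were seen. Papss2, which makes the sulfate donor PAPS, had 1176 CPM against 5.24, and the water channel genes Aqp4 and Aqp5 had 1531 against 44.1 and 8461 against 5233, with sister 2 the highest of 96 for both. Aqp5 was high in both sisters, since sister 1 ranked 2 of 96 and the 94 other cells had at most 3527 CPM. Alox15 and Vmo1 lie outside the filter and so had no part in choosing the pair: they had 163 and 267 CPM in sister 2, 0 and 0.178 in sister 1, and at most 0.118 and 0.343 in the other cells. Sox10, Muc5b and Bpifb1, which mark Bowman's glands, and Ermn, Cyp2g1 and Il33, which mark sustentacular cells, were at 0 in this cell. Of the leukocyte markers Ptprc and Lyz2 were at 0 and Cd68, a lysosomal protein gene, had 287 CPM, against 85.1 in sister 1. No listed cell type was named for it. Its ERCC share was 4.50% against 2.69% in its sister, and it is a single cell.

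**Figure D5:**
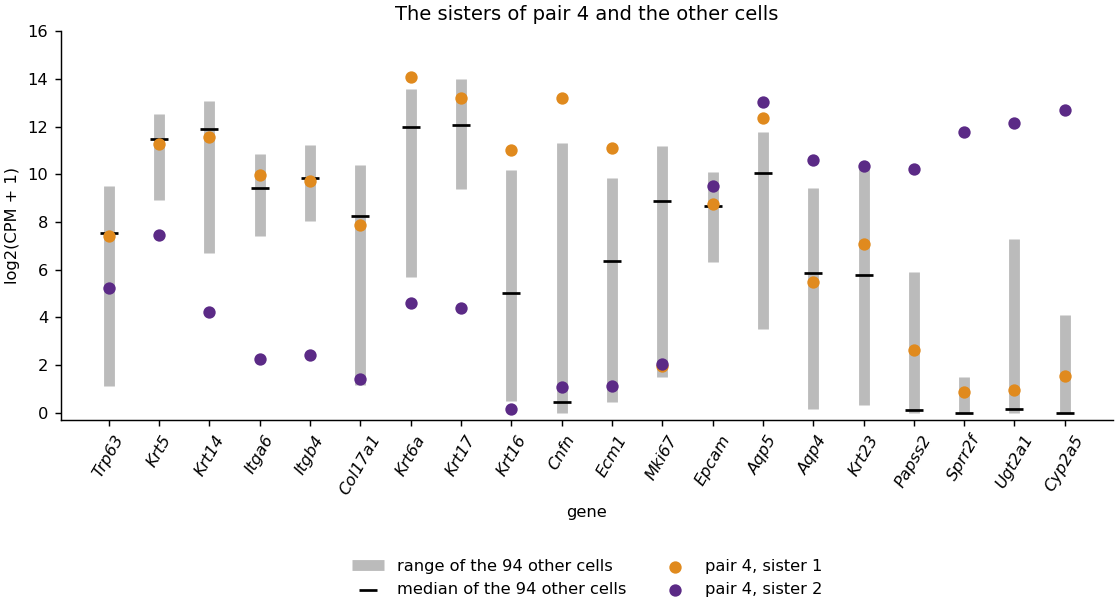
Level in log2(CPM + 1) (y axis) of 20 genes (x axis) in sister 1 (orange) and sister 2 (purple) of pair 4, with the range (grey bar) and median (black line) of the 94 other cells. Sister 2 lies below the grey bar for Krt5, Krt14, Itga6, Itgb4, Krt6a, Krt17 and Krt16 and above it for Aqp5, Aqp4, Krt23, Papss2, Sprr2f, Ugt2a1 and Cyp2a5. For Aqp5 sister 1 lies above it as well.

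Pairs 22 and 29 differed in the integrated stress response, the program that the transcription factor ATF4 drives when translation is curbed or amino acids run short. In pair 22, 10 of 14 well measured members were at least 2-fold higher in sister 2 and 1 in sister 1, beside 30.8% and 22.6% of all well measured genes, with a shift of -3.47 over all 15 members. Ddit3 (CHOP) had 0 counts in sister 1, which allows up to 0.0908 CPM, and 658 CPM (649 to 666) in sister 2. Trib3 had 0 and 190 CPM, Chac1 0 and 108, Nupr1 13.5 and 1246, and Atf4 itself 132 and 392. Phgdh, of serine synthesis, had more in sister 1, with 1228 and 395 CPM. Sister 1 of pair 22 also had more of several EGF pathway transcripts, among them Hbegf at 421 against 31.7 CPM and Egfr at 268 against 12.4. Erbb3 went the other way, with 19.7 CPM in sister 1 and 70.7 in sister 2. Krt6a was higher in sister 1, with 4479 against 914.

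In pair 29 the stress genes were higher in sister 1, 11 of 14 at least 2-fold and none in sister 2, beside 24.2% and 31.9% of all, with a shift of 1.99. Sesn2, which restrains mTORC1, had 53.5 and 0.377 CPM, Psat1 356 and 29.7, Asns (asparagine synthetase) 594 and 132, and Atf4 456 and 114. Unlike in pair 22, Ddit3 was at 0 in both sisters, so the members that differed were not the same in both pairs. The 3 genes that differed most in pair 29 were all higher in sister 2: Hbegf, a growth factor shed from the cell surface, with 0.182 (0.0667 to 0.396) and 774 CPM, Osgin1, an oxidative stress gene, with 0.576 and 617, and Tor4a with 0.182 and 290. The ERCC share was 5.75% in sister 1 and 4.67% in sister 2, the highest of any pair.

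EGF ligands and receptors shifted by 1 or more in 5 least similar pairs (4, 22, 26, 29 and 33) and in 2 most similar (30 and 37). In pair 33 all 5 well measured members that differed 2-fold were higher in sister 2, beside 25.6% of all, among them the ligands Tgfa (19.8 and 142 CPM), Areg (0.203 and 22.7) and Nrg1 (82.9 and 432) and the receptor Erbb2 (1.93 and 226). In pair 26 sister 2 had more Ereg, with 0.270 and 135 CPM, and Areg, with 0 and 50.1. The receptors Erbb2 (0.450 and 51.6 CPM) and Egfr (167 and 414) were higher in sister 2 as well. The receptor Erbb3 was higher in sister 1, with 53.4 and 0.0308. Tgfa was the member that most often separated the groups: it differed 2-fold in 9 of 12 least and 4 of 12 most similar pairs, with medians of 2.66 and 0.44. Of the 8 well measured members, 6 had the larger difference in the least similar pairs, near the 70.5% of all well measured genes.

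Notch pathway genes shifted by 1 or more in 1 pair of each group, and the median size of the shift was 0.23 in the least and 0.39 in the most similar pairs. In pair 2, of the least similar, 6 of 9 well measured members were at least 2-fold higher in sister 2, beside 29.2% of all, and none in sister 1, with Jag1 at 19.7 and 170 CPM, Dll1 at 0 and 74.1 and Numb, the Notch inhibitor that some cells pass to one daughter, at 0 and 38.9. In pair 30, of the most similar, 5 of 9 were higher in sister 1 and 2 in sister 2, beside 20.9% and 24.8% of all, with Jag1 at 82.4 and 8.21 CPM and Dll1 at 29.6 and 0. Numb differed 2-fold in 11 of 12 least similar pairs and 7 of 12 most similar, at a median level of 20.4 CPM in both groups, and its median difference was 2.05 against 1.27. Of 15 well measured genes of cell polarity and spindle orientation, 10 had the larger median difference in the least similar pairs (66.7%, beside 70.5% of all). Llgl1 (3.34 against 0.84) and Scrib (2.88 against 1.17) were among them, while Pard6a, named above, had the opposite pattern.

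In the remaining low pairs, 14, 15 and 20, no list with more than 2 members in the filter shifted by 1 or more, although 53.5% of well measured genes differed 2-fold in pair 14 and 52.5% in pair 20. Their cells had ERCC shares of 4.14% to 5.64%. The sisters of pairs 14 and 15 were nonetheless among each other's 4 nearest cells, as given above.

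Genes of the H3.3 histone and its chaperones were followed because old and new histones can be divided unequally between sisters. The values are levels of transcripts and do not measure how histone protein was divided. H3f3a differed by a median of 0.45 against 0.12 and reached 1.27 in pair 22, where it had 287 and 694 CPM. H3f3b differed by 0.34 against 0.32. Most chaperone genes varied more: Cabin1 differed 2-fold in 10 least and 7 most similar pairs with medians of 5.19 and 1.23, Ubn1 in 11 and 4 with 2.33 and 0.51, and Hira in 10 and 9 with 2.78 and 1.56. Atrx varied little, with medians of 0.51 and 0.48. Of the 9 members of the list, 8 had the larger median difference in the least similar pairs (88.9%, beside 70.5% of all well measured genes). Asf1b was the exception. A share as high was found for general housekeeping genes, with 9 of 10. In pair 8, Hira, Cabin1, Asf1a, Ubn1 and Daxx were all at least 2-fold higher in sister 1, with Hira at 62.5 and 1.31 CPM, 5 of the 9 members of the list beside 28.3% of all well measured genes. In pair 22 the same 5 genes and H3f3a were at least 2-fold higher in sister 2, 6 of 9 beside 30.8%.

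HBC markers and Mki67 had median differences under 1 in both groups. Trp63 differed by a median of 0.98 in the least and 0.97 in the most similar pairs, Krt5 by 0.51 and 0.26, Krt14 by 0.55 and 0.18, Krt6a by 0.97 and 0.47, and Mki67 by 0.75 and 0.51. Trp63 differed 2-fold in 6 and 5 of 12 pairs. Lists of abundant transcripts varied less in both groups: 79 ribosomal protein genes had median differences of 0.31 and 0.24, 74 genes of oxidative phosphorylation 0.46 and 0.37, and 16 mitochondrially encoded genes 0.28 and 0.25. For genes above 300 CPM as a whole the values were 0.45 and 0.32.

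The most similar pairs were not alike in every program. Pair 47 had shifts of 1.46 for cholesterol synthesis and 1.20 for glycolysis and hypoxia, with Mvd at 175 and 0.481 CPM, Ldha at 8113 and 1986 and Car9 at 303 and 19.0, and its stress genes were higher in sister 2, with Chac1 at 0.104 and 318 CPM. Its sisters also had the widest gap in ERCC share, with a ratio of 2.34. In pair 43 the DNA replication list shifted by -1.32 and Mki67 had 3.16 and 62.8 CPM. In pair 18, 13 of 21 well measured immediate early genes were at least 2-fold higher in sister 2, beside 21.9% of all, with Fos at 0.830 and 33.3 CPM and Egr1 at 0 and 16.4. In pair 10, the most similar, the genes that differed most were Acap2 (123 CPM and 0 counts, which allows up to 0.0776 CPM), Ripk4 (118 and 0.103 CPM) and Il1f9 (95.7 and 0 CPM), and no list with more than 2 members in the filter shifted by 1 or more. Immediate early genes shifted by 1 or more in 2 most similar and in 0 least similar pairs.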

How the data were processed

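The members, gene lists and call rule were chosen with earlier results of these data known. RNA of 96 single HBCs was captured on oligo-dT beads and amplified by 18 PCR cycles. The authors trimmed reads with Trimmomatic 0.39, aligned them with STAR 2.7.11a to GRCm38 with ERCC sequences, and deposited whole-number counts per gene from StringTie 2.2.1, not normalized, and TPM per gene and cell, which are scaled to transcript length and include ERCC transcripts. No libraries were identical, and no molecular identifiers were used, so that Poisson intervals (95%) and the limit of 3 counts for a 0 cover counting error only. Totals on genes were 29454150 to 44849003 counts per cell.

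Counts were scaled to CPM of non-ERCC genes and differences taken on log2(CPM + 1), with Python 3.11.15, numpy 2.4.6, scipy 1.17.1 and pandas 2.3.3. The calculations were tested on simulated data with planted 8-fold differences and no loss of transcripts. That checks the calculation and cannot show how the call rule performs on these cells. Alternatives used TPM, ERCC size factors (22 of 92 transcripts), TMM factors (R 4.3.3, edgeR 4.0.16) and thinning to 29454150 counts. No model was fitted and nothing was tested. Genes were named by rule. At a mean of 10 CPM or more, the rule took the 15 called genes of widest gap. It also took the 5 genes of widest gap of opposite sign, called or not, and the 5 of smallest difference. Added to these were 7 fixed genes, up to 4 members of a list, and the 3 leading genes of 3 least and 1 most similar pair. 1 of the 15 is not reported here. Other genes named within a pair were picked after their values were seen. Figures were drawn with matplotlib 3.10.9.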

Additional observations from a re-analysis of the deposited data

How the results depend on the processing

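Gene differences were taken within pairs, between the sisters of each pair, and no test was made. With the 12 pairs of each side, the gap in median sister correlation was 0.0782 and stayed within 1 SD of pairs under 4 of 5 alternatives. Without the filter on low counts it was 0.0424. The gap in pooled difference over all genes was 0.0771, and it was 0.0065 with ERCC size factors, 0.185 with a pseudocount of 0.1 CPM, 0 without a filter and 0.227 with the filter in 50% of the cells. Leaving out each of 24 pairs gave 0.0615 to 0.0906. Over genes of mean CPM of 10 or more the gap was 0.316, with 0.458 and 0.160 under pseudocounts of 0.1 and 10. In place of the 95 called genes there were 63 at 1.5-fold (8 shared with the 95), 77 at 4-fold (6 shared) and 514 at 8 and 4 of 12 pairs (95 shared). The 30 of the exchanged count became 16 when pairs were ranked by the excess over non-sisters, 13 at 4-fold, 217 at 8 and 4 of 12, and 17 among genes of mean CPM of 10 or more. With a minimum of 1 count, the gap in genes counted in one sister only was 500 in place of 260.5. The ERCC correlation gap was 0.0106, and -0.0064 within sets. Gaps in list shifts moved to 0.206 (clustered histones) and 0.168 (Wnt, BMP and TGF-beta) over members of mean CPM of 10 or more, and, with the mean in place of the median, to 0.599 (H3.3 and chaperones), 0.301 (differentiation transcription factors), -0.156 (xenobiotic enzymes), 0.0874 (Wnt, BMP and TGF-beta) and 0.169 (MHC class I). The causes were not tested. Alternatives limited to well measured genes, and those without pair 4, were chosen after seeing the data. Values near or below 1 CPM rest on few reads, so presence against absence is the least certain part of these differences.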
